A study of Homo sapiens with 2 samples.

Results

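The HOX genes of the 4 human HOX clusters were followed in chromatin accessibility maps of SUM159 cells. The 38 listed members, out of 19970 protein-coding genes (autosomes and X), were 10 genes of the HOXA cluster on chromosome 7, 10 of HOXB on chromosome 17, 9 of HOXC on chromosome 12 and 9 of HOXD on chromosome 2. They were chosen by name and not by a measured value, though earlier results of these data were known. For each gene the ATAC-seq peaks in its body and within 4 kb of any annotated transcript start were taken, and for each cluster all peaks from 50 kb before its first to 50 kb after its last listed gene.

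SUM159 is an established triple negative breast cancer line of the claudin-low kind, with mesenchymal features. Both cell populations carried pLV-KRAB, a lentiviral vector for dCas9-KRAB, which is a Cas9 without nuclease activity fused to the KRAB repressor domain. The No gRNA library (1 sample) came from cells with the empty vector control and no targeting guide RNA, and the All gRNA library (1 sample) from cells with 4 guide RNAs against the promoter of ZEB1, a repressor of epithelial genes. With 1 library on each side there was no replicate and no test between conditions: every difference below is one between these libraries, and every interval covers counting error only.

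HOX genes encode homeodomain transcription factors that give cells their position along the body axis. Each cluster holds them in the order in which they act, so that paralogue groups 1 to 3 are called anterior, 4 to 8 central and 9 to 13 posterior, and genes of the same group in different clusters descend from 1 ancestor. In most tissues Polycomb complexes keep the unused HOX genes silent, trithorax complexes keep the used ones active, and the pattern set in the embryo is largely kept in adult cells and in cell lines. HOX promoters are rich in CpG, and several long noncoding RNAs and microRNAs are made between the HOX genes.

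ATAC-seq marks open chromatin as sites where the transposase Tn5 inserts adapters. In all 74757 No gRNA and 75217 All gRNA peaks were listed, of which 67868 and 68238 lay on chromosomes 1 to 22 and X. The number of read ends stacked over a peak's summit, called the pileup here, was solved from the fold and p the peak caller wrote, and the All gRNA library was 0.743 times as deep as the No gRNA library. The main start of ZEB1, the targeted gene, had a peak with a pileup of 27 without guides and no peak with them. All 8 mesenchymal markers listed, ZEB1 among them, had a peak within 4 kb of a start in both libraries. So did 74.3% (No gRNA) and 73.9% (All gRNA) of all protein-coding genes. At the main start 8 and 7 of the 8 had a peak, against 62.9% and 61.8% of protein-coding genes. Of 10 epithelial markers 6 and 4 had a peak within 4 kb, and only KRT18 had one at its main start. Of 4 markers of other cell types only PECAM1 had a peak within 4 kb of a start, away from its main start, and PTPRC had 4 and 3 peaks in its body. ESR1 and PGR had no main start peak in either library, while ERBB2 had one in both.

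Sequences of open HOX promoters are given here because they lie wholly or partly in peaks whose values are compared below. They are the bases just before a transcript start, from the RefSeq promoter table for GRCh38.p14, which held 20 of the 38 members, with annotated UTR sequence left out. Capitals mark letters of 6 short motifs searched on both strands: AGGGGGC, the core of the CTCF motif, CAGGTG, an E-box that ZEB1 binds, TGANTCA for AP-1, TGATTNAT for HOX-PBX pairs, GGGCGG for SP factors and TATAAA, the TATA box. AGGGGGC and GGGCGG can share letters, as can TGANTCA and TGATTNAT.
HOXA4, chr7:27130781-27131007, minus strand: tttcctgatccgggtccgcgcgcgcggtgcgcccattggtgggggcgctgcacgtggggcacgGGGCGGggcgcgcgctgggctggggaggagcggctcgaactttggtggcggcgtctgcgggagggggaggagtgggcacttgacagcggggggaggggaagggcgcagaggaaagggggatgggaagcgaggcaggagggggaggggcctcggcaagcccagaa
HOXA3 internal start, chr7:27150951-27151200, minus strand: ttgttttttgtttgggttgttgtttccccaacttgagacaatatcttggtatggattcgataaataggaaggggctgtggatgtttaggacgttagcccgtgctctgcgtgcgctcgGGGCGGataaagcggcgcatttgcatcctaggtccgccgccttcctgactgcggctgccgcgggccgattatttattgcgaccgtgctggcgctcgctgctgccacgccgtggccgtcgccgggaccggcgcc
HOXA13, chr7:27200092-27200341, minus strand: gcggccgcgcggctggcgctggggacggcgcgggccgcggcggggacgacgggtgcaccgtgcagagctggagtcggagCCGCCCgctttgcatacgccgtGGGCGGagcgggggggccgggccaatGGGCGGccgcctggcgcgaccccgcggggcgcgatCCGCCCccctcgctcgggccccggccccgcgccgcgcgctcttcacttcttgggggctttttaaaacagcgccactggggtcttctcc
HOXD1, chr2:176188418-176188667, plus strand: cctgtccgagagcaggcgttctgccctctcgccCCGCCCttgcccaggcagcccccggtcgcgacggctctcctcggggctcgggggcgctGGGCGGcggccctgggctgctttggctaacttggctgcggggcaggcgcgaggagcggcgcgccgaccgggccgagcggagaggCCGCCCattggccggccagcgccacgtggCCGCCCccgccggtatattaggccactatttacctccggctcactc
HOXD11, chr2:176107030-176107279, plus strand: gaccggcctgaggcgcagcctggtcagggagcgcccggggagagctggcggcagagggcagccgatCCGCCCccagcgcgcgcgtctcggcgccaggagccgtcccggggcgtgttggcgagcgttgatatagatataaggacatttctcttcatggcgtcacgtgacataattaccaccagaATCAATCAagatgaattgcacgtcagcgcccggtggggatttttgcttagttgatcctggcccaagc

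In the HOXA4 stretch 227 of 227 bases lay inside a peak of both libraries, with pileups of 113 (No gRNA) and 53 (All gRNA). The HOXD11 stretch also lay wholly inside peaks of both libraries. Those of HOXA3 and HOXD1 did so in No gRNA, with 220 and 178 of 250 bases inside peaks in All gRNA. For HOXA13 it was 204 (No gRNA) and 212 (All gRNA) of 250 bases. The internal HOXA3 start, which lies just upstream of HOXA6, was inside the only matched HOX peak called different between the libraries. The stretches of HOXA13 and HOXD1 each held 4 GGGCGG matches, and that of HOXD11 held 1 TGATTNAT match. A match to letters describes these bases and says nothing of binding.

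For contrast, 2 stretches without a peak in either library are those of HOXD13, the most posterior HOXD gene, and of HOXB1, the most anterior HOXB gene.
HOXD13, chr2:176092471-176092720, plus strand: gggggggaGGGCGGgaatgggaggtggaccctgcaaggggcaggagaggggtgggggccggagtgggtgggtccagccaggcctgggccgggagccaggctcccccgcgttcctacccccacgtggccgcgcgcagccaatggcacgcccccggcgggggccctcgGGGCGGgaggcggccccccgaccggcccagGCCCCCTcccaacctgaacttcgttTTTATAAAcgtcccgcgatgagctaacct
HOXB1, chr17:48531012-48531261, minus strand: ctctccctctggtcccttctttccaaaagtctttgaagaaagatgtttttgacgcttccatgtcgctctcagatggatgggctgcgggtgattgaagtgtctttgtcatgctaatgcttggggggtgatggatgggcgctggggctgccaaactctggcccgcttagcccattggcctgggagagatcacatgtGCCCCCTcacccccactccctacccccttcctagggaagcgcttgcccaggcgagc

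The HOXD13 stretch had a GC content of 74.0%, close to the 74.8% of the open HOXD1 stretch, and its CpG count was 21 against 31. The HOXB1 stretch had a GC content of 57.2% and 7 CpG.

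The 4 clusters were not open to the same extent. Without flanks, peaks of the No gRNA library covered 5.36% of HOXA, 5.05% of HOXC and 3.79% of HOXD, but 0.510% of HOXB. In the All gRNA library they covered 4.60% of HOXA, 2.68% of HOXC, 3.66% of HOXD and 0.490% of HOXB. Over chromosomes 1 to 22 and X the covered share was 0.915% and 0.846%, so HOXA, HOXC and HOXD lay above and HOXB below the rest of the genome in both libraries. HOXB, spread over 200 kb because HOXB13 lies far from its neighbours, held 4 peaks in each library inside the cluster. Its covered share was taken over this whole span, with the long gap before HOXB13. Its place below the genome holds for that span, and a share without the gap was not computed.

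**Figure D1:**
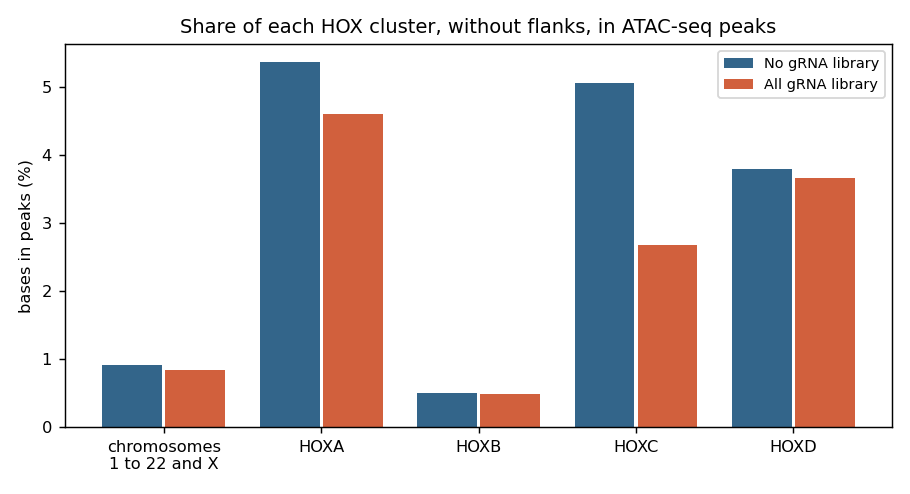
Share of bases inside peaks (y axis, %) on chromosomes 1 to 22 and X and in each HOX cluster without flanks, with 1 bar for each library. HOXA, HOXC and HOXD stand above the bars for the chromosomes and HOXB below them, and the HOXC bars stand at 5.05% and 2.68%.

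With 50 kb on either side the clusters held 45 No gRNA and 40 All gRNA peaks: 17 and 16 in HOXA, 7 and 8 in HOXB, 15 and 8 in HOXC, and 6 and 8 in HOXD. The covered length was 20115 bp and 16217 bp, a ratio of 0.806, and over all chromosomes the same ratio was 0.924. HOXC had the lowest ratio of the 4, 0.585 (6301 bp and 3687 bp), followed by HOXA with 0.877, HOXD with 0.891 and HOXB with 1.08. Of the peaks, 26 of 45 and 24 of 40 had their summit within 1 kb of the start of a HOX gene or of a noncoding gene of the clusters. Starts lie close together in the clusters, and the same count was not made over all peaks.

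**Figure D2:**
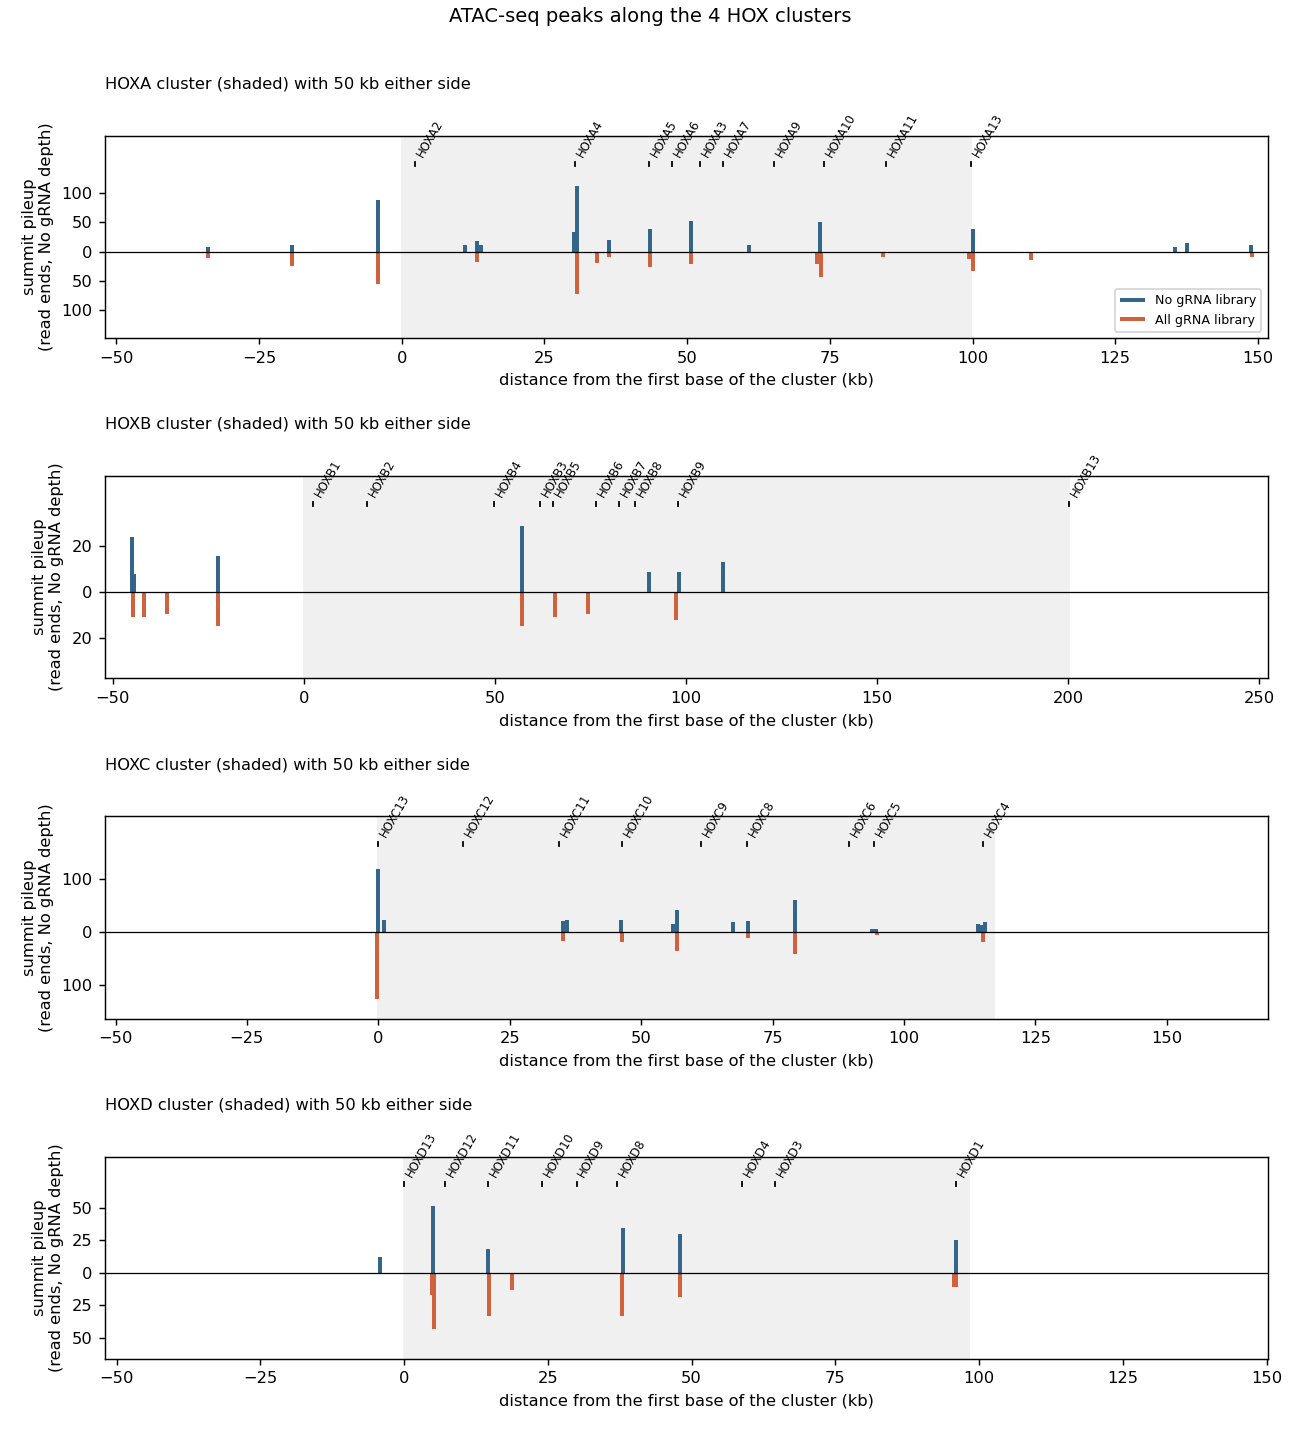
Peaks along the 4 HOX clusters, with the distance from the first base of the cluster on the x axis (kb, cluster shaded) and the summit pileup on the y axis (read ends, All gRNA brought to the No gRNA depth and drawn downwards). Ticks mark the main start of each member. The tallest bars stand at HOXA4 and HOXC13, and the HOXB panel, whose axis ends lowest, holds no bar above 29.

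Of the 38 members 25 (No gRNA) and 26 (All gRNA) had a peak within 4 kb of a start (65.8% and 68.4%), against 74.3% and 73.9% of all protein-coding genes. The share of HOX genes was thus near the background. HOX genes lie close together, so 1 peak often fell in the windows of several members. Within 1 kb of any start the counts were 18 and 20 of 38, against 68.1% and 67.3% of protein-coding genes. Within 1 kb of the main start, that of the Ensembl canonical transcript, they were 14 and 16 (36.8% and 42.1%), against 62.9% and 61.8%. In these narrower windows the HOX share was below the background in both libraries, and this difference was not tested.

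By cluster, a main start peak was found at 4 (No gRNA) and 5 (All gRNA) of 10 HOXA genes, at 1 and 2 of 10 HOXB genes, at 6 and 6 of 9 HOXC genes and at 3 and 3 of 9 HOXD genes. By position, 1 of 7 anterior genes had one in both libraries, 6 and 7 of 15 central genes and 7 and 8 of 16 posterior genes. No gene of paralogue groups 2, 3, 6, 7 and 12 had a main start peak in either library. Groups 5 and 11 were the only ones in which each listed gene (3 and 3) had one in the All gRNA library. In group 5 the All gRNA pileups were 19 (HOXA5), 8 (HOXB5) and 4 (HOXC5), and 4 was the lowest in that list. In group 11 they were 7 (HOXA11), 12 (HOXC11) and 25 (HOXD11). Within 4 kb of any start the classes lay closer together. There 4 of 7 anterior and 10 of 15 central genes had a peak in each library, and 11 and 12 of 16 posterior genes. In that window group 3 had a peak at 3 of 3 genes in both libraries and group 6 at 2 and 3 of 3. Gene bodies held a peak at 20 and 25 of 38 members, with no count over all protein-coding genes to compare.

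**Figure D3:**
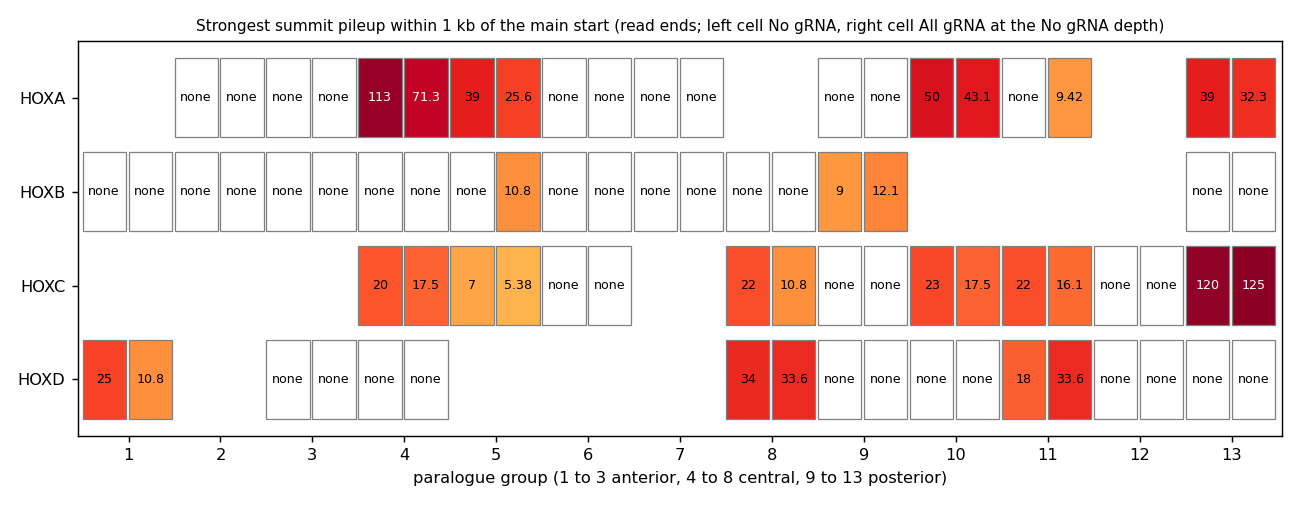
Summit pileup of the strongest peak with any part within 1 kb of the main start, for each listed HOX gene, by cluster (rows) and paralogue group (x axis). Values are read ends, with No gRNA in the left and All gRNA at the No gRNA depth in the right cell of each pair. Empty positions have no listed gene, and "none" means no peak. The HOXC row has most filled cells and the HOXB row fewest, and HOXA4 (113) and HOXC13 (120) are the strongest.

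Of the 38 members 10 had no peak within 4 kb of a start in either library: HOXA2, HOXB1, HOXB2, HOXB4, HOXB7, HOXB13, HOXC12, HOXD4, HOXD9 and HOXD13. HOXB7 was the only one of these with peaks in its annotated body, which is long because some of its transcripts start far upstream. HOXA2 patterns the hindbrain and branchial arches, HOXB13 the prostate and tail end, and HOXD13 the digits. A missing peak means that no call was made at this depth, where the weakest peaks in the lists had a pileup of 5 (No gRNA) and 4 (All gRNA), and does not show closed chromatin.

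In the HOXA cluster the main starts with a peak were those of 2 central and 3 posterior genes. HOXA4, a central gene, had the strongest HOXA peak, with a pileup of 113 without and 53 with the guides. The ratio of All gRNA to No gRNA, scaled by depth, was 0.631 (95% interval 0.447 to 0.882). The interval left out 1, but it covers counting error only, and in the strongest class of all shared peaks 21.5% had an interval below 1. In the No gRNA list the site was split into a stronger peak of 563 bp and a weaker one of 462 bp, and in the All gRNA list it was 1 peak of 997 bp. HOXA5, a gene linked to breast and lung epithelium, had pileups of 39 and 19 at its start (ratio 0.656, 0.358 to 1.16). The interval included 1.

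HOXA10 and HOXA13, posterior genes of the uterus and of the limb and genital tract, had main start peaks in both libraries. At HOXA10 the pileups were 50 and 32 (0.861, 0.535 to 1.37) and the summits lay 608 bp and 527 bp downstream of the main start. At HOXA13 they were 39 and 24 (0.828, 0.476 to 1.41), and the peak lay between HOXA13 and the start of HOTTIP, a noncoding RNA made in the other direction. HOXA11, which acts in limb and uterus, had a main start peak only in the All gRNA library, with a pileup of 7 and a −log10 q of 4.89. The summit lay 596 bp downstream of the HOXA11 main start but 35 bp from a start of the noncoding gene HOXA11-AS. Genes with a main start peak only in the All gRNA library were 2 of 38 here, and 1.43% of all protein-coding genes, and genes with one only in the No gRNA library were 0 of 38 and 2.62%. HOXA7, with a pileup of 11 at 3255 bp upstream, had a peak within 4 kb only in the No gRNA library.

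HOXA9, a posterior gene known from blood stem cells and leukaemia, had no peak within 1 kb of its main start. Its windows held the HOXA10 peak, since some HOXA9 transcripts start near it. HOXA6 likewise had none at its main start, but an upstream start of it lay 456 bp from the summit of a peak at chr7:27150504-27151244. The main start of HOXA3 lay another 1524 bp upstream of that summit, and a RefSeq start of HOXA3 lay inside the peak, whose bases are printed above.

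Of the HOX peaks matched 1 to 1, that peak alone was called lower in the All gRNA library. Its pileup was 53 without guides and 16 with them, which is 21.5 at the No gRNA depth, and the ratio was 0.406 (0.217 to 0.722). A peak was called when its ratio was past 2-fold and the interval left out 1. Among 22 HOX peaks matched 1 to 1 between the lists 1 was called lower and 0 higher, against 3.27% lower and 2.44% higher among all 48041 such peaks. The HOX count was thus near the background. Without the 2-fold limit 2 of the 22 were lower, against 8.85%. When overlapping peaks of both lists were merged into regions, 2 of 27 HOX regions were lower, the second at HOXD1, against 3.30% of all regions. Without the 2-fold limit 4 of the 27 merged regions were lower (14.8%), against 8.97% of all regions. HOXA4 was among these 4 but not among the 22, because its site was split in the No gRNA list. Scaled by the median ratio of all shared peaks in place of depth, 2 of the 22 were higher, against 3.29%.

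The shared HOX peaks as a group lay somewhat below equality. Their median ratio was 0.765 (median log2 −0.39) and 18 of 22 were under 1, against a median of 0.928 (log2 −0.11) and 58.1% under 1 over all shared peaks. Peak strength moved with this: over all shared peaks in 5 equal classes of strength the median log2 ratio fell with strength. The HOX medians from the weakest to the strongest class were −0.35 (3 peaks), −0.45 (7), −0.53 (4), −0.42 (6) and −0.31 (2), and those of all shared peaks 0.07, −0.01, −0.08, −0.17 and −0.23. The HOX median was the lower one in each class, with few peaks behind each value. By cluster the median ratio was 0.785 in HOXA (9 peaks), 0.510 in HOXB (3), 0.761 in HOXC (7) and 0.989 in HOXD (3).

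**Figure D4:**
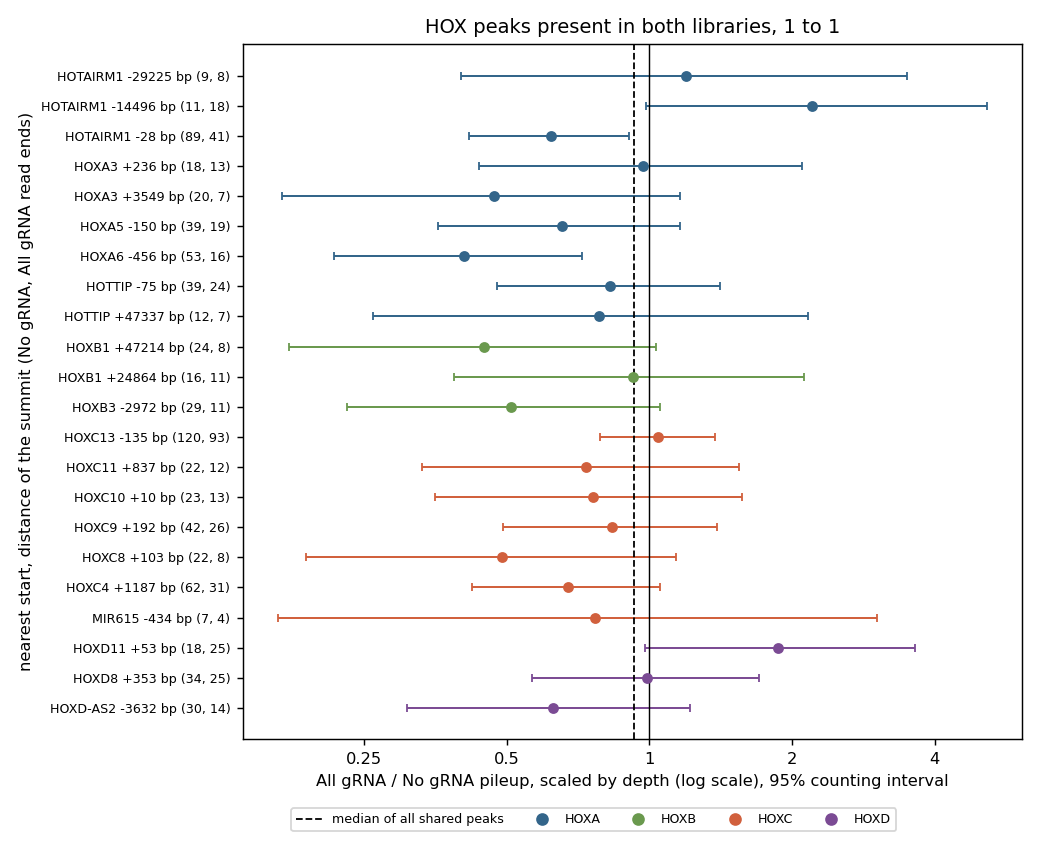
Ratio of All gRNA to No gRNA summit pileup after scaling by depth (x axis, log scale) for the 22 HOX peaks matched 1 to 1, with 95% counting intervals, labelled by the nearest start, the distance of the summit and both pileups. Most points lie left of the line at 1, the intervals of the peak near HOXA6 and of that at HOTAIRM1 end below 1, and HOXD11 and a peak 14496 bp from HOTAIRM1 lie to the right.

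HOXB was the least open cluster. Its strongest peak lay in an intron of HOXB3, an anterior gene of the hindbrain, 2972 bp upstream of the nearest start, with pileups of 29 and 11 (ratio 0.510, 0.230 to 1.05). At HOXB9, a posterior gene, both libraries had a pileup of 9, but the peaks did not overlap: the No gRNA summit lay 293 bp upstream and the All gRNA summit 331 bp downstream of the start. HOXB5, a central gene, had a main start peak only in the All gRNA library, with a pileup of 8. Within 4 kb of a start, HOXB8 had a peak only in the No gRNA library (pileup 9). HOXB6 had 2 there only in the All gRNA library. The stronger of these was the HOXB5 peak itself, and the other had a pileup of 7. None of these pileups was above 9. A peak 4533 bp upstream of the outermost start of HOXB7, outside its body and with a pileup of 13 and a −log10 q of 11.3, was found only in the No gRNA library.

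HOXC was the cluster with the most open main starts. HOXC13, a posterior gene of hair and nail, had the strongest peak of all 4 clusters, with pileups of 120 and 93 and a ratio of 1.04 (0.787 to 1.38). On the log scale this was the narrowest interval of the matched HOX peaks, and the difference between the libraries was within counting error. At HOXC10 the pileups were 23 and 13 (0.761, 0.354 to 1.57) and at HOXC11 22 and 12 (0.734, 0.331 to 1.55). Both are posterior genes next to each other, and both intervals include 1. The HOXC11 summits lay 839 bp and 792 bp downstream of the main start. HOXC4, a central gene also used in lymphocytes, had 20 and 13 at its main start (0.875, 0.400 to 1.85), and HOXC5 only 7 and 4 (0.769, 0.165 to 3.02). At HOXC4 the No gRNA summit lay 375 bp downstream and the All gRNA summit 7 bp upstream of the main start. The All gRNA peak there overlapped 2 No gRNA peaks, so HOXC4 was not among the matched peaks.

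A stronger peak of this cluster lay 1187 bp downstream of a start used by long transcripts of HOXC4, and within 4 kb of a start of HOXC6, with pileups of 62 and 31 (0.673, 0.422 to 1.05). HOXC8 had 22 and 8 at its start (0.489, 0.188 to 1.14). HOXC9 was open not at its main start but 192 bp from an upstream one, with 42 and 26 (0.833, 0.490 to 1.39). HOXC12, between HOXC13 and HOXC11, was the only HOXC gene with no peak within 4 kb in either library.

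In HOXD the strongest peak lay between genes, 1980 bp upstream of HOXD12, with a pileup of 51 in No gRNA. The All gRNA list had 2 peaks there, with pileups of 32 and 13, and the stronger of them gave a ratio of 0.844 (0.525 to 1.34). HOXD8, a central gene, had 34 and 25 (0.989, 0.566 to 1.71), with summits 1005 bp and 961 bp downstream of the main start. HOXD11, a posterior gene of forearm and kidney, had 18 and 25, and its ratio of 1.87 (0.980 to 3.64) was the highest of the main starts with a peak in both libraries. The interval included 1. HOXD1, the only anterior gene with a main start peak, had a pileup of 25 without guides and 2 weaker peaks of 8 each with them (0.431, 0.168 to 0.985). Because the All gRNA site was split, HOXD1 was not among the 22 matched peaks.

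Peaks without a partner in the other list were 16 of 45 without guides (35.6%, exact binomial 95% interval 21.9 to 51.2) and 10 of 40 with guides (25.0%, 12.7 to 41.2). Over chromosomes 1 to 22 and X these shares were 24.7% and 23.8%, inside both intervals. In HOXC, 6 of 15 peaks without guides (40.0%, 16.3 to 67.7) but 0 of 8 with guides lacked a partner, and 0 of 8 allows a share of up to 36.9%. In HOXB it was 4 of 7 and 5 of 8. The weakness of the HOXB peaks moved with this, since their pileups were 8 to 29 and 7 to 11.

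Of the 6 unmatched HOXC peaks 5 had an All gRNA peak within 1 kb. The other, at chr12:54006082-54006361, lay in an intron 2777 bp upstream of HOXC8, with a pileup of 20 and a −log10 q of 14.6. At the All gRNA depth 14.9 read ends would be its counterpart, and a pileup of 6 would have been enough for a call at that background, yet no All gRNA peak lay within 1 kb. Another stood at the start of HOTAIR, a noncoding RNA between HOXC11 and HOXC12 that was first described as a partner of Polycomb, with a pileup of 23 and a −log10 q of 12.3. Here the nearest All gRNA peak was that of HOXC11. The remaining HOXC peaks past a −log10 q of 5 found only in No gRNA lay 293 bp from the start of HOXC13-AS (pileup 24), 23 bp from a start of HOXC9 (16) and 940 bp from the main start of HOXC4 (15).

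Outside HOXC, the No gRNA peaks without a partner and past a −log10 q of 5 were near a start of HOXA-AS2 (pileup 12), upstream of HOXA7 (11), between HOTTIP and the gene EVX1 (15), upstream of HOXB8 (9), at HOXB9 (9), upstream of HOXB7 (13) and 4167 bp upstream of HOXD13 (12). The peak before EVX1 lay 36156 bp downstream of a start of HOTTIP. Distances were taken only to starts of HOX genes and of noncoding genes of the clusters. The All gRNA peaks past the same limit were 4: 8743 bp beyond the start of HOTTIP (pileup 11, −log10 q 9.72), 44155 bp from HOXB1 (8), at HOXB5 (8) and at HOXB9 (9). None of the All gRNA ones reached a −log10 q of 10, and 4 of the No gRNA ones did.

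Among 21 noncoding genes of the clusters, HOTAIRM1, which starts beyond HOXA2 at the anterior end of HOXA and is known from myeloid cells, had the strongest start peak that was not also at the main start of a HOX gene listed here. Its pileups were 89 and 41 (0.620, 0.417 to 0.907), with an interval that left out 1, as in 21.5% of the strongest shared peaks. The peaks of HOXA-AS3 (113 and 53), HOXC13-AS (120 and 93), HOXC-AS3 (23 and 13) and HAGLR (25 and 8) were those of HOXA4, HOXC13, HOXC10 and HOXD1, near whose starts these genes begin. MIR10A, MIR10B, MIR196A1 and HOXB-AS1 had no peak within 4 kb in either library. MIR196A2 and MIR196B had peaks within 4 kb but none at their starts. MIR615 had 7 and 4, in peaks that also lay within 1 kb of the HOXC5 main start. EVX1, the homeobox gene beyond HOXA13, had a weak peak away from its main start (12 and 7), and EVX2, beyond HOXD13, had none.

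Genes known to act with or upstream of HOX genes were open about as often as protein-coding genes as a whole. The 7 lists together gave 34 of 44 genes with a peak within 4 kb in each library (77.3%, background 74.3% and 73.9%), and 29 and 30 with one at the main start (65.9% and 68.2%, background 62.9% and 61.8%). TALE homeodomain cofactors had a peak within 4 kb at 7 of 9 genes in both libraries, Polycomb genes at 11 of 11, trithorax genes and H3K27 demethylases at 8 of 8, and CTCF and the cohesin gene RAD21 at 2 of 2. Retinoic acid receptors and CYP26 enzymes, which set HOX domains in the embryo, were open at 5 of 6, and CDX and ParaHox genes at 0 of 6. PKNOX1, a TALE homeodomain factor, had main start pileups of 246 and 217 (1.19, 0.984 to 1.43), above those of any HOX gene listed. MEIS1 had 38 and 34 (1.20, 0.735 to 1.96), and PBX2 and MEIS3 had no peak.

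The members' starts also differed in base composition. The median GC content of 1 kb centred on the main start was 59.7% over the 38 members and 61.3% over protein-coding genes. CpG observed over expected, a measure of how many CpG remain relative to base content, was 0.790 against 0.725 in the median. It was at least 0.6 at 32 of 38 members (84.2%) and at 66.4% of protein-coding genes. All 16 members with a main start peak in at least 1 library reached 0.6, and 16 of the 22 others did. The 6 below it were HOXB1, HOXB2, HOXB3, HOXB6, HOXB13 and HOXC6, so 5 of 6 lay in HOXB. CpG-rich starts without a peak included HOXA9 (1.02), HOXC12 (0.933) and HOXC9 (0.904).

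In 300 bp around the main start GGGCGG was found at 12 of 38 members (31.6%) and at 61.5% of protein-coding genes, and CAGGTG at 1 member, HOXA7 (2.63%), and at 22.3%. GGGCGG stood at 4 of the 16 members with a main start peak and at 8 of the 22 others. TGANTCA and TGATTNAT were each found at 2 members (5.26%, against 4.62% and 1.45%). AGGGGGC and TATAAA were each found at 5 (13.2%, against 18.1% and 8.12%). In 300 bp around the summit of the HOX peaks GGGCGG was found in 24 of 45 and 23 of 40, No gRNA first (53.3% and 57.5%), against 23.4% and 22.7% of all peaks. TGANTCA was found in 7 of 45 and 4 of 40 (15.6% and 10.0%), against 39.2% and 40.2% of all peaks, and CAGGTG in 7 and 3 (15.6% and 7.50%), against 17.4% and 19.1%. AGGGGGC was found in 3 HOX peaks of each library (6.67% and 7.50%, all peaks 8.43% and 7.95%). TGATTNAT was found in 5 and 2 (11.1% and 5.00%, all peaks 7.74% and 7.91%). TATAAA was found in 2 and 3 (4.44% and 7.50%, all peaks 14.5% and 14.9%). The nearness of HOX peaks to starts, given above, was not set beside that of all peaks, and its part in these shares was not tested.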

How the data were processed

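ATAC-seq was analysed in 1 No gRNA and 1 All gRNA library of SUM159 cells. The authors used fastp for trimming and bowtie2 for alignment to hg38, discarded mitochondrial, excluded-region and duplicate reads, and called peaks per library with MACS2 without a control, for which the methods state a window of 150 bp shifted by 75 bp. The deposited peaks carry a fold (a ratio to the local background), −log10 p, −log10 q and a score, which was not used. MACS2 gives the fold as (pileup + 1) / (background + 1) and p from a Poisson distribution. From these deposited values a whole-number pileup was solved for 100% of peaks (tolerance 0.01 in −log10 p), a step tested on simulated data. The lowest backgrounds, 0.652 and 0.484, gave the depth ratio, and the stated window puts depth at 11700000 and 8720000 read ends. The shortest peak was 200 bp, and a 200-bp window, considered after seeing the data, would give 8800000 and 6540000 with the same ratio. Both ends of a fragment can count, so counts are not independent molecules and intervals are too narrow.

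Genes came from GENCODE 44 on hg38. A peak counted for the window around a start when any part of it lay inside, wherever its summit was. Peaks were shared when they overlapped by at least 1 bp. Ratios of 1-to-1 peaks had exact conditional binomial 95% intervals. Named genes were the 3 strongest main starts per cluster, starts or peaks (−log10 q of at least 5) found in 1 library, called ratios, and the strongest peak per cluster. Other members with peaks, such as HOXA5, HOXC4, HOXC5, HOXC8 and HOXC9, were added after their values were seen. Motifs were searched within 150 bp of starts and summits. The members and lists were chosen with earlier results of these data known. Alternatives are given in the closing section. Scripts used Python 3.11.15, pandas 2.3.3, numpy 2.4.6, scipy 1.17.1 and pysam 0.24.0.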

Additional observations from a re-analysis of the deposited data

How the results depend on the processing

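No paired analysis was possible because there was only 1 library a side, and no replicate could be left out. Of 50 alternative values 34 stayed within 1.5 times or the spread of the main value, 16 moved further and 0 reversed. With a −log10 q of at least 10 the HOX clusters with flanks kept 29 No gRNA and 15 All gRNA peaks, the latter covering 9371 bp, 16 members were open in All gRNA, and unmatched peaks were 4 (No gRNA) and 0 (All gRNA). With at least 5, unmatched All gRNA peaks were 4. With the 50000 strongest peaks of each list, 29 and 20 HOX peaks were left. With the main start alone, 14 and 16 members were open instead of 25 and 26. Where a gap of up to 1000 bp counted as shared, 8 No gRNA peaks had no partner, and where 50% of both peaks had to overlap, 19 All gRNA peaks had none. Merged regions gave 2 of 27 lower in All gRNA (7.41%, all regions 3.30%), the second at HOXD1, and an interval that excludes 1 at any size also gave 2 of 22 (9.09%, all shared peaks 8.85%), the second at HOTAIRM1. Scaling by the median ratio of all shared peaks gave 2 higher in place of 0, HOXD11 (ratio 2.01) and the peak 14496 bp from HOTAIRM1 (2.37). Pileups below about 10 limit what can be told at most HOXB sites.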
